A study of Homo sapiens with 25 samples.

Results

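The genes described here are 10 long non-coding RNAs that carry small nucleolar RNAs (snoRNAs) in their introns and whose spliced transcripts are known to be destroyed when ribosomes translate them: GAS5, SNHG1, SNHG5, SNHG6, SNHG8, SNHG12, SNHG15, SNHG16, ZFAS1 and EPB41L4A-AS1. The rule that chose them is a list of names of known decay targets, drawn up when earlier results of these data were known. All 10 were among the 60179 gene identifiers of the expression table, and all 10 were among the 13753 genes with a mean of at least 1 TPM (a share of all transcripts in a library, scaled for their length) that were tested. The cells were HEC-1A, an established line from a human endometrial adenocarcinoma, of WT genotype in every group per the labels. RNA was measured in cells given 20 µM THC for 24 h, in cells given 20 µM THC for 72 h and in untreated cells, with 3 libraries each. ATAC-seq, which maps open chromatin, had the same 3 groups of 3. H3K4me3, a histone mark of active gene starts, was mapped by CUT&RUN in 3 THC and 3 untreated libraries, and the labels of its THC libraries give 20 µM but no duration.

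The series title describes THC as a cannabinoid. Untreated libraries carry no time and no vehicle in their labels, so exposure to THC, its vehicle and time in culture cannot be told apart. All results come from 1 cell line. The labels call the libraries biological replicates without saying whether each was a culture of its own, and p-values reflect only the spread among these libraries.

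A snoRNA host gene is transcribed and spliced like a messenger RNA. The excised introns are trimmed into snoRNAs, which guide the chemical modification of ribosomal RNA, while the joined exons are exported to the cytoplasm. In the hosts described here those exons hold only short open reading frames, so a translating ribosome stops early and nonsense-mediated decay, the pathway that destroys RNAs with early stop codons, removes the transcript. Blocking translation or the central decay factor UPF1 is known to raise such transcripts. Many host genes also begin with a run of pyrimidines, the 5′ terminal oligopyrimidine (TOP) tract, which they share with ribosomal protein genes and which ties translation of the RNA to growth signals. Neither translation nor RNA stability was measured in these samples, and a TPM value cannot tell new synthesis from slower decay, or more RNA in each cell from a change in the make-up of the cells.

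The start sites were looked at first, because the TOP tract is the sequence feature these genes are best known to share. RefSeq promoter entries (GRCh38.p14) were matched for 8 of the 10 genes. SNHG6 and SNHG15 had no entry. Each line below gives 60 bases, 30 before and 30 from the annotated start on, on the gene's own strand from 5′ to 3′. Capitals mark the longest unbroken run of C and T that begins within 5 bases of the annotated start, where that run has at least 5 letters.
GAS5, chr1:173869016-173869075, minus strand: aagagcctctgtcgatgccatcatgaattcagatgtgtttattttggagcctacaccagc
SNHG1, chr11:62855856-62855915, minus strand: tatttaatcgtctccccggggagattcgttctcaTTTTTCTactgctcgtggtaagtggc
SNHG5, chr6:85678704-85678763, minus strand: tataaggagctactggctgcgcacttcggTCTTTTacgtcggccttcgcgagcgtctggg
SNHG8, chr4:118278732-118278791, plus strand: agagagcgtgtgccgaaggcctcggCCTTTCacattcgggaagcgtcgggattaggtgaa
SNHG12, chr1:28581844-28581903, minus strand: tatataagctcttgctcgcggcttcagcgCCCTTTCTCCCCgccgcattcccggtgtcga
SNHG16, chr17:76557734-76557793, plus strand: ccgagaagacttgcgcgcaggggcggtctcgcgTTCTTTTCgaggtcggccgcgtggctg
ZFAS1, chr20:49278612-49278671, plus strand: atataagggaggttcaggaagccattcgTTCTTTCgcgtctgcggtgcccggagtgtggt
EPB41L4A-AS1, chr5:112160496-112160555, plus strand: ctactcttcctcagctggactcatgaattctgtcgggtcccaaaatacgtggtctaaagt

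Such a run was present at 6 of the 8 starts, against 24.3% of the 34961 promoters in the table. SNHG12 had the longest, with 12 letters, followed by SNHG16 with 8, SNHG1 and ZFAS1 with 7 each, and SNHG5 and SNHG8 with 6 each. GAS5 and EPB41L4A-AS1 had none of 5 letters in these windows. The annotated start of GAS5 lies upstream of its open chromatin (below), and that of EPB41L4A-AS1 does so in most ATAC libraries. The windows of both may therefore not hold the start in use in these cells. Genes with a run are not free of this doubt. The starts used for SNHG12 and ZFAS1, 28581873 and 49278642, lie inside annotated spans whose 5′ ends reach 28582983 and 49278178. At SNHG1 and ZFAS1 the ATAC peak ended upstream of the start in most libraries. The letters TATATAAG, a form of the TATA box, were found on either strand within the 300-base promoters (250 before the start and 50 from it on) of SNHG5, SNHG12 and ZFAS1, against 0.646% of all promoters. In all 3 it lay on the gene's own strand, with its first letter at -32, -30 and -31 from the start. This motif was chosen after the sequences had been seen. The letters TATAAA were found in SNHG1 (11.5% of all promoters on either strand), but on the opposite strand and from position 39 downstream of the start. They overlap no TATATAAG there. Neither TGATGNAAN, the form of site that C/EBP and ATF factors share, nor CACGTG, the E-box, was found in any of the 8, against 3.61% and 7.27% of all promoters, each on either strand. A match is only a run of letters, and the absence of a match says only that these letters are not in this window.

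All 10 host genes were higher after THC at both times. At 24 h the test called 10 higher and 0 lower, where 25.0% of all tested genes were called higher and 51.7% lower. At 72 h it called 10 higher and 0 lower, where 40.1% of all tested genes were called higher and 33.0% lower. Every 24 h library stood above every untreated library for all 10 genes, as it did for 25.8% of all tested genes, while for 52.8% every 24 h library stood below. The 72 h libraries likewise stood above the untreated ones for all 10, as for 41.6% of all tested genes, with 35.0% the other way. Both comparisons use the same 3 untreated libraries. The log2 change was at least 1 for 8 host genes at 24 h, when 5.28% of tested genes were called higher by that much, and for 5 at 72 h, when 8.17% were. The median log2 change of the 10 was 1.31 at 24 h, against -0.23 over all tested genes, and 1.00 at 72 h, against 0.06 over all tested genes.

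Added together, the 10 host genes made up 3030, 3178 and 3035 TPM at 24 h, 2666, 2903 and 2772 TPM at 72 h, and 809.1, 821.6 and 852.9 TPM in untreated libraries. The sums averaged 3081 ± 84.1 TPM at 24 h, 2780 ± 119 TPM at 72 h and 827.9 ± 22.6 TPM in untreated cells (SD, n = 3 each). All THC sums lay far above all untreated sums. TPM is a share of a fixed total, so a change of other abundant RNAs shifts every gene. Mitochondrially encoded RNAs took 3.37% of the TPM at 24 h, 1.30% at 72 h and 7.42% in untreated libraries on average. Leaving them out of the total, or centring each library on its median gene, kept all 10 genes called higher at 24 h and 9 of the 10 at 72 h, the exception being SNHG16. After centring, 36.0% of all tested genes were called higher and 37.3% lower at 24 h, and 34.8% higher and 38.9% lower at 72 h.

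**Figure D1:**
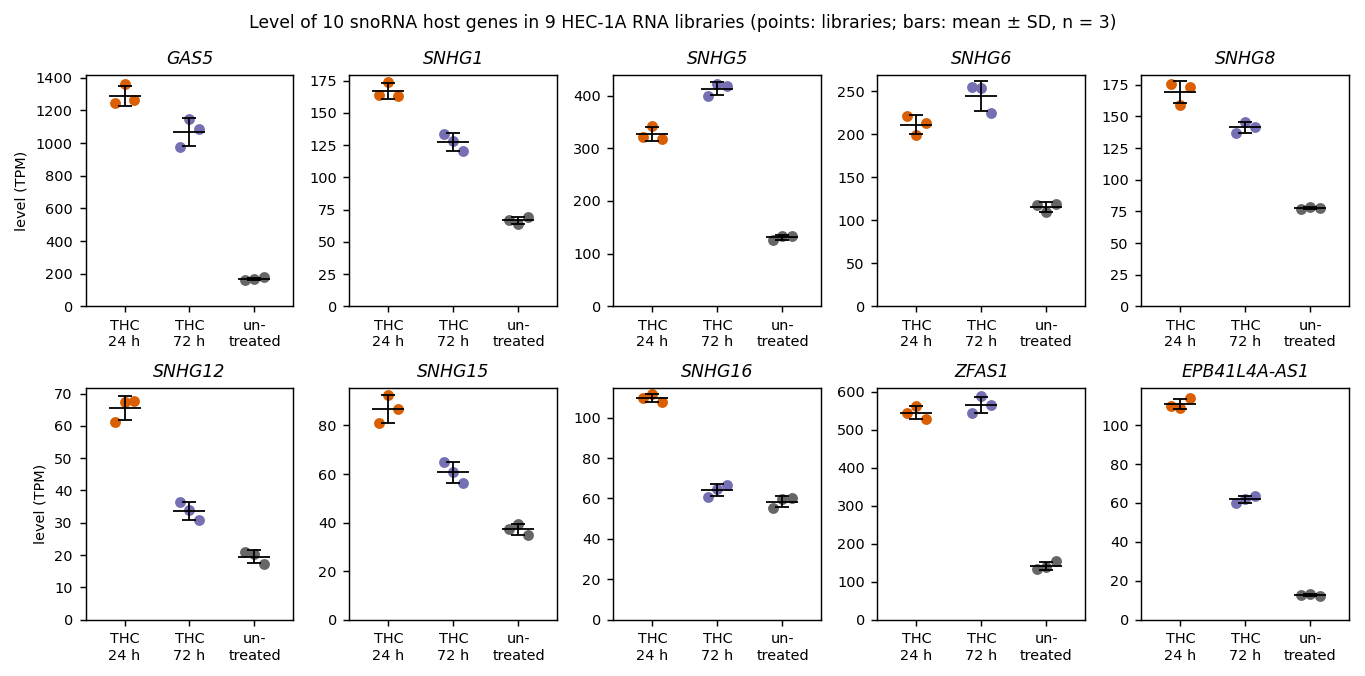
Level in TPM of each of the 10 host genes in the 9 RNA libraries, 1 panel per gene with its own axis from 0: THC 24 h, THC 72 h and untreated, points for libraries and bars for mean ± SD (n = 3). All THC points lie above the untreated points, narrowly for SNHG16 at 72 h (60.8 to 66.7 against 55.5 to 60.2 TPM).

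The hosts of box C/D snoRNAs, the class that guides methylation of the ribose, are GAS5, ZFAS1, SNHG1, SNHG5, SNHG6 and SNHG16. GAS5 (ENSG00000234741.8), named for its accumulation in growth-arrested cells, lies at chr1:173863901-173869045 on the minus strand and hosts the largest set of snoRNAs among the 10. It had 1245, 1360 and 1262 TPM at 24 h, 974.4, 1146 and 1085 TPM at 72 h, and 161.4, 164.8 and 177.1 TPM in untreated cells. It was the most abundant of the 10 in every group. Its mean was 7.69-fold the untreated mean at 24 h and 6.37-fold at 72 h. In limma's test on log2(TPM + 1) the log2 changes were 2.93 (SE 0.064, adjusted p = 2.64e-10) at 24 h and 2.66 (SE 0.064, adjusted p = 4e-10) at 72 h. Of all tested genes, 42 had a larger change than GAS5 at 24 h and 48 at 72 h.

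ZFAS1 (ENSG00000177410.13), the host of the SNORD12 family, is annotated at chr20:49278178-49289260 on the plus strand. It had 543.1, 563.0 and 529.1 TPM at 24 h, 544.9, 587.7 and 564.4 TPM at 72 h, and 133.3, 139.4 and 153.5 TPM in untreated cells. The 2 times overlapped and both lay well above untreated. The log2 changes in limma's test were 1.93 (adjusted p = 1.14e-09) at 24 h and 1.99 (adjusted p = 1.03e-09) at 72 h.

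SNHG1 (ENSG00000255717.7), at chr11:62851978-62855885 on the minus strand, carries SNORD22 and its neighbours in successive introns. It had 164.0, 174.2 and 163.2 TPM at 24 h, 133.8, 128.5 and 120.2 TPM at 72 h, and 67.1, 63.8 and 69.3 TPM in untreated cells. The 3 groups did not overlap. SNHG5 (ENSG00000203875.12), the host of SNORD50A and SNORD50B at chr6:85677007-85678733 on the minus strand, had 320.5, 341.6 and 318.2 TPM at 24 h, 398.3, 421.2 and 418.1 TPM at 72 h, and 126.2, 133.7 and 132.8 TPM in untreated cells. At 24 h both genes stood at 2.50 times their untreated mean, and they parted afterwards, with SNHG5 at 3.15-fold and SNHG1 at 1.91-fold at 72 h. The log2 change of SNHG1 was 1.31 (adjusted p = 9.77e-09, limma) at 24 h and 0.92 (adjusted p = 1.19e-07) at 72 h. That of SNHG5 was 1.31 (adjusted p = 3.04e-09, limma) at 24 h and 1.65 (adjusted p = 7.79e-10) at 72 h.

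SNHG6 (ENSG00000245910.8), the host of SNORD87, is annotated at chr8:66921690-66925541. It had 220.7, 199.2 and 212.9 TPM at 24 h, 255.1, 253.4 and 224.6 TPM at 72 h, and 118.1, 109.0 and 118.6 TPM in untreated cells. Its log2 change was the smallest of the 10 at 24 h, 0.87 (adjusted p = 5.47e-07, limma), and was 1.08 (adjusted p = 1.31e-07) at 72 h. SNHG16 (ENSG00000163597.15), the host of SNORD1A, SNORD1B and SNORD1C at chr17:76557764-76565348 on the plus strand, had 109.8, 111.9 and 107.8 TPM at 24 h, 60.8, 64.7 and 66.7 TPM at 72 h, and 55.5, 59.7 and 60.2 TPM in untreated cells. At 24 h it was higher by 0.90 on the log2 scale (adjusted p = 8.44e-08, limma). At 72 h the groups were separated by less than 1 TPM, and the log2 change was 0.13 (SE 0.049, adjusted p = 0.0362, limma). That last call was lost in 10 of 19 alternatives (adjusted p from 0.0155 to 0.495), among them centring on the median gene (log2 change 0.04, adjusted p = 0.45) and leaving out untreated replicate 1 (0.09, adjusted p = 0.14), THC 24 h replicate 3 (0.13, adjusted p = 0.0516), THC 72 h replicate 2 (0.12, adjusted p = 0.0858) or THC 72 h replicate 3 (0.10, adjusted p = 0.121). By its change at 72 h SNHG16 was exceeded by 45.7% of all tested genes, whereas each of the other 9 was exceeded by at most 16.3%.

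The remaining hosts carry snoRNAs of the box H/ACA class, which guides the conversion of uridine to pseudouridine. SNHG12 carries snoRNAs of both classes. EPB41L4A-AS1 (ENSG00000224032.7), at chr5:112160526-112162501 on the plus strand, hosts SNORA13 and lies antisense within EPB41L4A. It had 109.8, 109.0 and 114.1 TPM at 24 h, 60.1, 62.0 and 63.7 TPM at 72 h, and 12.85, 12.99 and 11.98 TPM in untreated cells. This was the scarcest of the 10 in untreated cells and had the largest ratio at 24 h, 8.80-fold, with 4.91-fold at 72 h. The log2 changes were 3.04 (SE 0.047, adjusted p = 3.37e-11, limma) at 24 h and 2.21 (SE 0.047, adjusted p = 1.75e-10) at 72 h, and 38 tested genes had a larger change at 24 h.

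SNHG12 (ENSG00000197989.14), annotated at chr1:28578538-28582983 on the minus strand, had 61.1, 67.4 and 67.7 TPM at 24 h, 36.3, 34.1 and 30.7 TPM at 72 h, and 20.9, 20.3 and 17.1 TPM in untreated cells. On the log2 scale it fell by the most of the 10 between the times. Its log2 change was 1.70 (adjusted p = 4.45e-08, limma) at 24 h and 0.76 (adjusted p = 1.73e-05) at 72 h. SNHG15 (ENSG00000232956.9), the host of SNORA9 at chr7:44983023-44986696, had 81.1, 92.6 and 86.9 TPM at 24 h, 64.9, 60.7 and 56.5 TPM at 72 h, and 37.2, 39.6 and 34.8 TPM in untreated cells. The groups stood apart, with 72 h between the other two. Its log2 change was 1.20 (adjusted p = 1.26e-07, limma) at 24 h and 0.69 (adjusted p = 8.32e-06) at 72 h. SNHG8 (ENSG00000269893.8), the host of SNORA24 at chr4:118278762-118279823 on the plus strand, had 175.4, 159.0 and 173.0 TPM at 24 h, 137.1, 145.4 and 141.8 TPM at 72 h, and 76.6, 78.2 and 77.5 TPM in untreated cells. Its 3 groups did not overlap either. The log2 change was 1.12 (adjusted p = 1.19e-08, limma) at 24 h and 0.86 (adjusted p = 7.72e-08) at 72 h.

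**Figure D2:**
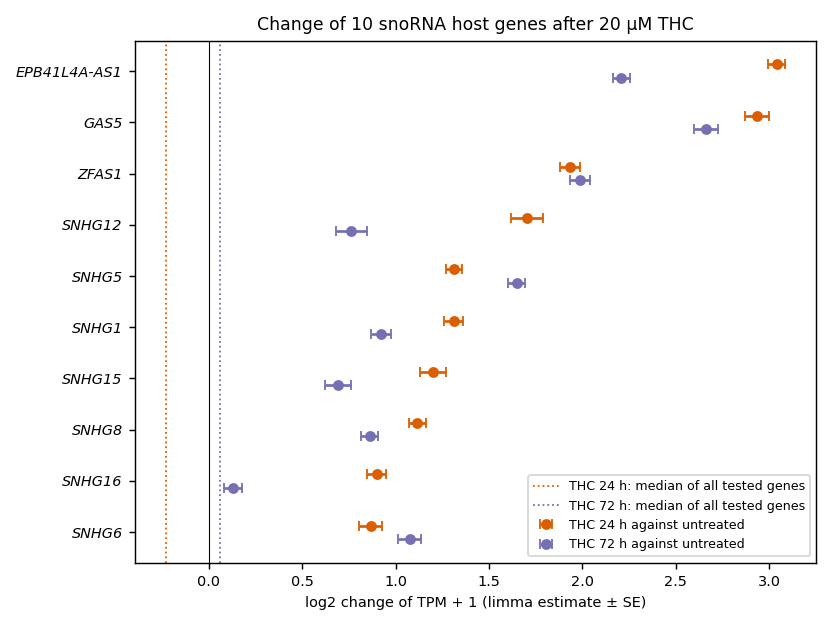
Log2 change of TPM + 1 against untreated cells for each host gene, with limma's standard error, at 24 h (orange) and 72 h (purple). The changes spread from 0.87 to 3.04 at 24 h and from 0.13 to 2.66 at 72 h, while the dotted medians of all 13753 tested genes lie at -0.23 and 0.06.

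TPM is scaled by transcript length, so levels can be set in order between genes. In every group the 4 most abundant were GAS5, ZFAS1, SNHG5 and SNHG6, in that order, followed by SNHG8 and SNHG1. EPB41L4A-AS1 was the tenth in untreated cells, the seventh at 24 h and the eighth at 72 h, and SNHG12 was the lowest at both THC times. Several neighbours in these orders were not separated by their libraries. At 24 h SNHG8 overlapped SNHG1, and EPB41L4A-AS1 overlapped SNHG16. At 72 h SNHG16, EPB41L4A-AS1 and SNHG15 overlapped one another. In untreated cells the only overlapping pair was ZFAS1 and SNHG5.

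The host genes did not keep 1 course between the 2 times. Set at 72 h against 24 h, 7 were lower and 2 higher, and ZFAS1 did not pass the test, where 17.8% of all tested genes were called lower and 54.9% higher. SNHG12 (log2 change -0.94, adjusted p = 5.09e-06, limma), EPB41L4A-AS1 (-0.83, adjusted p = 2.61e-07), SNHG16 (-0.77, adjusted p = 5.24e-07) and SNHG15 (-0.51, adjusted p = 8.87e-05) fell the furthest. SNHG1 (-0.39, adjusted p = 7.77e-05), GAS5 (-0.27, adjusted p = 0.0032) and SNHG8 (-0.26, adjusted p = 0.00058) fell by less. These 7 genes had no overlap between their 72 h and 24 h libraries, and neither did the 2 that rose, where 18.5% of all tested genes lay wholly lower and 55.4% wholly higher. SNHG5 rose by 0.34 (adjusted p = 6.35e-05, limma) and SNHG6 by 0.21 (adjusted p = 0.0109), while ZFAS1 changed by 0.05 (adjusted p = 0.405). The median tested gene rose by 0.26 between these times in TPM. After each library was centred on its median gene, 8 host genes were lower and 0 higher: ZFAS1 then fell by 0.25 (adjusted p = 0.00378), and SNHG5 (0.03, adjusted p = 0.538) and SNHG6 (-0.095, adjusted p = 0.243) did not pass. Centred in this way, 37.9% of all tested genes were called lower and 30.4% higher. The direction of SNHG6 and ZFAS1 between 24 h and 72 h therefore depended on the scaling, and the fall of the other 7 did not.

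Other non-coding snoRNA hosts moved in both directions, as all tested genes did. Of 20 listed, 18 were tested, and 6 rose and 8 fell at 24 h, with a median log2 change of 0.13. Among all tested genes 25.0% were called higher and 51.7% lower. After centring, 8 rose and 6 fell, against 36.0% and 37.3% of all tested genes. At 72 h 9 rose and 4 fell, with a median of 0.18, against 40.1% and 33.0% of all tested genes. Centring made these counts 9 and 5, against 34.8% and 38.9%. SNHG32 had 282.0, 278.1 and 287.1 TPM at 24 h, 241.8, 214.0 and 212.3 TPM at 72 h, and 51.7, 49.4 and 48.5 TPM in untreated cells. Its log2 changes of 2.48 (adjusted p = 2.53e-10, limma) at 24 h and 2.13 (adjusted p = 5.21e-10) at 72 h were within the range of the 10 genes above. SNHG7 rose by 2.04 at 24 h and 1.73 at 72 h (adjusted p = 1.09e-08 and 3.37e-08, limma), SNHG29 by 1.22 and 1.62 (adjusted p = 1.91e-08 and 2.89e-09), and SNHG17 by 1.63 and 0.52 (adjusted p = 5.92e-10 and 1.48e-06). SNHG22 rose at 72 h, by 0.92 (adjusted p = 0.00143, limma). In the opposite direction, DANCR had 34.6, 32.4 and 32.1 TPM at 24 h against 66.9, 67.5 and 72.6 TPM in untreated cells. DANCR fell by 1.04 on the log2 scale at 24 h (adjusted p = 4.98e-08, limma) and stood 0.01 below untreated at 72 h (adjusted p = 0.818). SNHG30 fell by 1.14 and SNHG9 by 1.17 at 24 h (adjusted p = 6.31e-08 and 0.00109, limma). DANCR, SNHG30 and SNHG9 were picked out here for the size of their fall at 24 h after their values were seen. The difference between the 10 genes and these other hosts was not tested.

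Hosts that encode proteins were set beside the non-coding ones. Of 21 outside the ribosomal proteins, 15 rose and 4 fell at 24 h (median log2 change 0.35), and 9 rose and 10 fell at 72 h (median -0.11). Among all tested genes 25.0% were called higher and 51.7% lower at 24 h, and 40.1% higher and 33.0% lower at 72 h. TAF1D, a subunit of the RNA polymerase I factor SL1, rose by 2.02 at 24 h (adjusted p = 3.34e-09, limma). RABGGTB, a subunit of the enzyme that prenylates Rab proteins, rose by 1.15 (adjusted p = 4.64e-07), and the translation elongation factor gene EEF2 by 1.07 at 24 h and 0.88 at 72 h (adjusted p = 1.87e-07 and 8.62e-07). TPT1, a growth-linked gene with a TOP tract, rose by 1.06 at 24 h and 1.76 at 72 h (adjusted p = 3.59e-08 and 1.34e-09, limma). EEF1B2, another elongation factor gene, rose by 0.94 at 72 h (adjusted p = 5.6e-08, limma), and the chaperonin gene TCP1 fell by 0.83 (adjusted p = 3.75e-07).

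Of 24 ribosomal protein genes that host snoRNAs, 19 rose and 0 fell at 24 h (24 rose after centring), with a median log2 change of 0.31. All tested genes were called higher in 25.0% and lower in 51.7% (36.0% and 37.3% after centring). At 72 h 21 rose and 1 fell, with a median of 0.52, against 40.1% and 33.0% of all tested genes. Centring made these counts 19 and 2, against 34.8% and 38.9%. RPL12 rose by 1.14 and RPL10 by 0.91 at 24 h (adjusted p = 9.01e-09 and 3.93e-08, limma), followed by RPL3 at 0.64 (adjusted p = 2.64e-07) and RPL13 at 0.43 (adjusted p = 0.000673). At 72 h RPL10 stood at 1.29, RPL12 at 1.07, RPS12 at 1.03 and RPL37 at 0.94 (adjusted p from 3.97e-09 to 6.83e-08, limma). Ribosomal protein genes have many near-identical copies in the genome, so their individual values are uncertain.

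**Figure D3:**
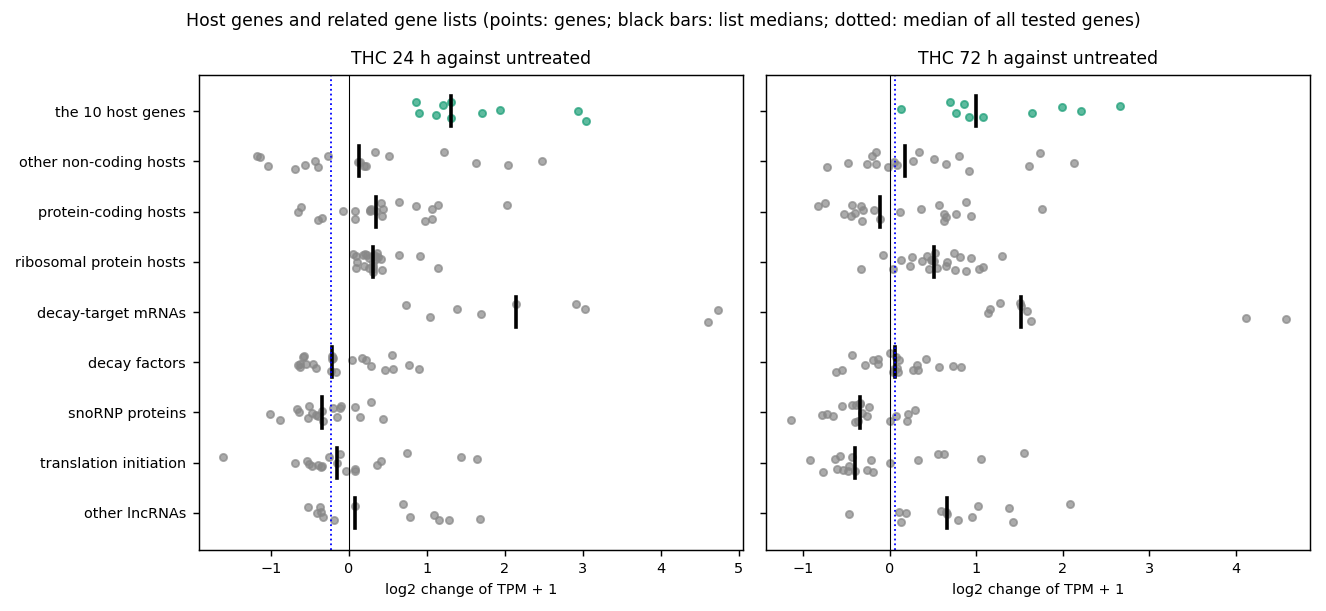
Log2 change of TPM + 1 of every tested gene in 9 lists, at 24 h (left) and 72 h (right) against untreated cells, with the list median as a black bar and the median of all tested genes as a dotted line. All 10 host genes (green) lie right of 0 in both panels, and the other non-coding hosts lie on both sides.

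Messenger RNAs known as targets of nonsense-mediated decay moved in the direction of the 10 host genes. All 9 listed were higher at 24 h and all 9 at 72 h, where 25.0% and 40.1% of all tested genes were called higher. Their median log2 changes were 2.15 and 1.52. Some of them are also targets of the stress factor ATF4. ATF3, a stress-induced transcription factor, had 59.9, 62.8 and 67.7 TPM at 24 h, 59.5, 60.6 and 50.2 TPM at 72 h, and 1.40, 1.45 and 1.40 TPM in untreated cells. Its log2 changes were 4.74 at 24 h and 4.58 at 72 h (adjusted p = 4.82e-11 and 5.26e-11, limma). DDIT3, which encodes CHOP, rose by 4.60 and 4.12 (adjusted p = 2.17e-12 and 4.93e-12, limma), and the growth arrest gene GADD45A by 3.03 and 1.59 (adjusted p = 2.21e-10 and 9.61e-09). UPP1, uridine phosphorylase, rose by 2.92 at 24 h and 1.51 at 72 h (adjusted p = 7.56e-11 and 3.27e-09, limma). ATF4 itself rose by 1.69 at 24 h and 1.63 at 72 h (adjusted p = 2.76e-10 and 2.83e-10, limma).

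The genes of the decay machinery were mixed. Of 22 decay factors, 7 were higher and 13 lower at 24 h, or 9 and 8 after centring, and their median log2 change of -0.21 was close to that of all tested genes. At 72 h 7 were higher and 5 lower, or 7 and 7 after centring. Among all tested genes 25.0% were called higher and 51.7% lower at 24 h (36.0% and 37.3% after centring). The shares at 72 h were 40.1% and 33.0% (34.8% and 38.9% after centring). SMG9, a partner of the kinase that phosphorylates UPF1, rose by 0.89 at 24 h and 0.73 at 72 h (adjusted p = 3.44e-07 and 1.64e-06, limma). The decay-linked helicase gene DHX34 rose by 0.78 at 24 h (adjusted p = 1.68e-05, limma), while SMG6, the endonuclease that cuts the targets, fell by 0.66 (adjusted p = 6.8e-06) and EIF4A3, of the exon junction complex, by 0.63 (adjusted p = 6.71e-07). UPF1, the central factor of the pathway, is added here after its values were seen. It had 32.5, 30.1 and 28.4 TPM at 24 h, 39.7, 29.2 and 33.0 TPM at 72 h, and 44.1, 48.2 and 46.2 TPM in untreated cells. It fell by 0.59 at 24 h and 0.44 at 72 h (adjusted p = 0.00027 and 0.00213, limma), and both calls held after centring. At 72 h SMG8 rose by 0.82 (adjusted p = 1.46e-06, limma), and the release factor gene GSPT1 fell by 0.62 (adjusted p = 9.48e-07).

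Genes for the snoRNA-binding proteins and their assembly factors were more often lower than higher at both times, as all tested genes also were at 24 h. Of 19, 3 were higher and 12 lower at 24 h, where 25.0% of all tested genes were higher and 51.7% lower. After centring 4 were higher and 9 lower, where 36.0% and 37.3% of all tested genes were. At 72 h 3 were higher and 13 lower, where 40.1% of all tested genes were higher and 33.0% lower. After centring 1 was higher and 13 lower, where 34.8% and 38.9% of all tested genes were. PIH1D1 and RUVBL1, both part of the R2TP assembly machinery, fell by 1.01 and 0.88 at 24 h (adjusted p = 7.09e-09 and 2.61e-08, limma) and by 0.66 and 1.14 at 72 h (adjusted p = 1.43e-07 and 4.85e-09). RPAP3, another R2TP member, and NOP58, a core box C/D protein, fell by 0.66 and 0.64 at 24 h (adjusted p = 3.5e-06 and 2.08e-06, limma). RUVBL2 fell by 0.78 and FBL, the methyltransferase of box C/D particles, by 0.72 at 72 h (adjusted p = 5.51e-06 and 3.3e-08, limma).

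Among 19 genes of translation initiation and TOP control, 6 were higher and 9 lower at 24 h, or 8 and 8 after centring. At 24 h 25.0% of all tested genes were called higher and 51.7% lower, or 36.0% and 37.3% after centring. At 72 h 5 of the 19 were higher and 13 lower, against 40.1% and 33.0% of all tested genes. EIF1, which sets start codon choice, rose by 1.65 and 1.55 (adjusted p = 1.34e-09 and 2e-09, limma). EIF4EBP1, an inhibitor of the cap-binding protein, rose by 1.44 and 1.05 (adjusted p = 9.99e-09 and 9.13e-08), whereas its relative EIF4EBP2 fell by 1.61 at 24 h (adjusted p = 5.39e-09). EIF4B rose by 0.74 at 24 h (adjusted p = 1.72e-07, limma). EIF1AX fell by 0.92 and EIF4E, the cap-binding protein, by 0.77 at 72 h (adjusted p = 7.35e-06 and 4.72e-07, limma). Of 13 tested long non-coding RNAs that host no snoRNA, 6 rose and 5 fell at 24 h, or 6 and 3 after centring. At 72 h 11 rose and 1 fell, against 40.1% and 33.0% of all tested genes. After centring 9 rose and 1 fell, against 34.8% and 38.9%. NEAT1, the scaffold of nuclear paraspeckles, rose by 1.68 and 1.37 (adjusted p = 2.47e-10 and 7.11e-10, limma), and MALAT1, a nuclear speckle RNA, by 1.29 and 1.42 (adjusted p = 1.81e-05 and 9.69e-06). CYTOR rose by 1.16 at 24 h (adjusted p = 1.75e-08, limma), HCG18 by 1.02 at 72 h (adjusted p = 2.8e-05), and MIR22HG by 1.10 and 2.08 (adjusted p = 8.41e-07 and 1.01e-08). Of the 5 that fell at 24 h, TUG1 and NORAD are added here after their values were seen. They fell by 0.52 and 0.41 at 24 h (adjusted p = 3.11e-06 and 0.000319, limma). At 72 h they stood above untreated by 0.96 and 0.79 (adjusted p = 3.91e-08 and 2.74e-06, limma).

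The genes most like the 10 hosts over the 9 libraries were ranked by the root mean square difference between each gene's log2 course, set to 0 in untreated cells, and the mean course of the 10. Among 10601 candidates with a mean of at least 5 TPM, the closest were NEAT1 (0.061 log2 units), NRBF2 (0.061), AHNAK2 (0.065), TFPI2 (0.068) and CCNL1 (0.071). These 5 are near because they were picked as the nearest of many, so their distances cannot be set against those of the hosts. The hosts, not picked by distance, lay from 0.28 for SNHG5 and 0.29 for SNHG1 to 0.80 for SNHG16, 0.97 for EPB41L4A-AS1 and 1.09 for GAS5 from their own mean. The mean course is thus that of a middling host, with GAS5 and EPB41L4A-AS1 well above it and SNHG16 well below it.

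The snoRNAs themselves could not be followed. Of 34 snoRNAs named for these hosts, 24 had an identifier in the table, with 30 identifiers in all, and 27 of the 30 were at 0 in all 9 libraries. SNORD22, carried by SNHG1, was listed at 13.7 TPM in THC 24 h replicate 2 and 5.61 TPM in THC 72 h replicate 2, and at 0 in the other 7 libraries. A value of 0 here may be a short RNA that the library or the quantification missed.

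Several hosts share their locus with another gene. The clearest case was SNHG1 and SLC3A2, which encodes the heavy chain shared by several amino acid transporters and is transcribed away from SNHG1. Their annotated starts lie 224 bases apart. The sequence below runs on the strand of SNHG1 (minus strand, GRCh38.p14, chr11:62855836-62856108) from the base next to the first base of SLC3A2 into SNHG1. It is shown because both genes start from it, and capitals mark the first 50 bases of SNHG1.
SNHG1 and SLC3A2 shared start region: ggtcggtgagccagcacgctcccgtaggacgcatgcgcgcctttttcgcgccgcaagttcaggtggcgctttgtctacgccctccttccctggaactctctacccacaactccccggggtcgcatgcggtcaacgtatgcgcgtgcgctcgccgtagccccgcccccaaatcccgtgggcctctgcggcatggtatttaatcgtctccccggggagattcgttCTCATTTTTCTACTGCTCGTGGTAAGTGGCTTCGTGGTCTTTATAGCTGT

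SLC3A2 had 1478, 1487 and 1481 TPM at 24 h, 2226, 2119 and 2081 TPM at 72 h, and 112.0, 106.9 and 89.7 TPM in untreated cells. Its log2 changes were 3.84 at 24 h and 4.37 at 72 h (adjusted p = 1.02e-10 and 4.29e-11, limma), against 1.31 and 0.92 for SNHG1. Between the THC times SLC3A2 rose by a further 0.53 (adjusted p = 7.56e-05, limma), and SNHG1 fell by 0.39.

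None of the other tested neighbours was called higher with its host in TPM as deposited, and after centring ZNFX1 was at 24 h. EPB41L4A, the protein-coding gene on the opposite strand of EPB41L4A-AS1, had 0.99, 1.51 and 0.66 TPM at 24 h, 0.72, 0.61 and 0.68 TPM at 72 h, and 2.08, 2.19 and 2.15 TPM in untreated cells. It fell by 0.63 at 24 h and 0.91 at 72 h (adjusted p = 0.00175 and 0.000163, limma), while its antisense partner rose. ZBTB37 overlaps the annotated 5′ end of GAS5 on the opposite strand and fell by 0.41 at 24 h and 0.29 at 72 h (adjusted p = 0.00265 and 0.0189, limma), the 24 h call being lost after centring (adjusted p = 0.0737). GAS5-AS1, at the other end of GAS5, was below the level tested, with 0.17, 0.44 and 0.42 TPM at 24 h, 0.61, 0.94 and 0.62 TPM at 72 h, and 0.91, 0.98 and 1.18 TPM in untreated cells. TRNAU1AP, which overlaps the 3′ end of SNHG12, fell by 0.28 at 24 h and 0.26 at 72 h (adjusted p = 0.000798 and 0.00162, limma), the 24 h call being lost after centring (log2 change -0.065, adjusted p = 0.241). ZNFX1, whose annotated end facing ZFAS1 lies 585 bases from the ZFAS1 start, changed by 0.04 at 24 h (adjusted p = 0.513, limma) and fell by 0.15 at 72 h (adjusted p = 0.0346). After centring, ZNFX1 was higher at 24 h (log2 change 0.26, adjusted p = 0.000579). MCMDC2, which spans SNHG6, was at or near 0 in all libraries and was not tested. The library kit marks strand, but no source used here says whether the quantification did, so values of overlapping genes are uncertain.

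**Figure D4:**
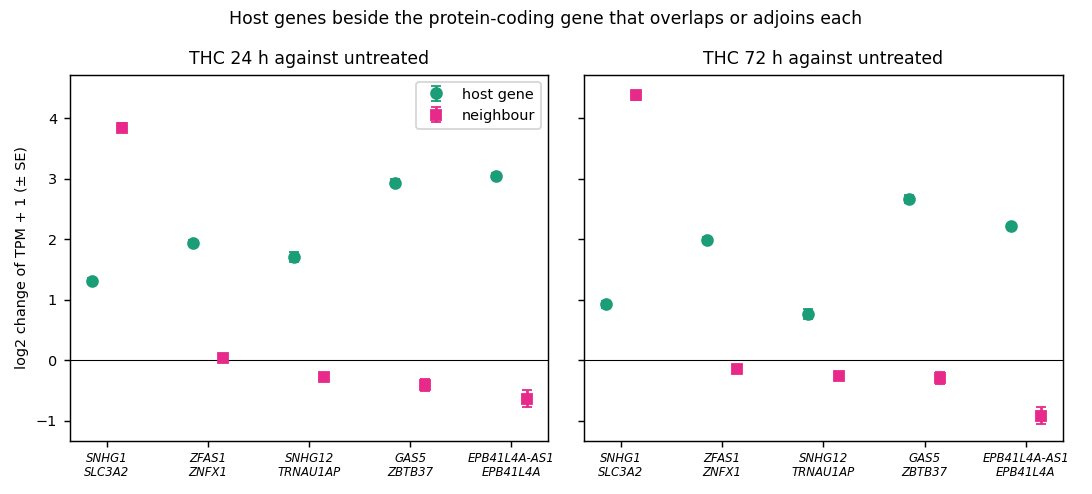
Log2 change of TPM + 1 with its standard error for 5 host genes (circles) and the protein-coding gene that overlaps or adjoins each (squares), at 24 h (left) and 72 h (right) against untreated cells. SLC3A2 lies above SNHG1 at both times, and the other neighbours lie between -0.91 and 0.04.

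Chromatin at the starts was compared as peaks listed or not listed in each library, within 1 kb of the annotated start. All 8 host genes with a start in the table had an H3K4me3 peak in all 3 THC and all 3 untreated libraries, as 90.2% and 90.0% of the starts of 10084 tested genes had. All 8 had an ATAC peak in all libraries of each group, where 86.4% of the starts of tested genes had one in all 24 h libraries, 75.5% in all 72 h libraries and 89.1% in all untreated libraries. The ATAC count depended on the peak threshold. With a -log10 q of at least 5, 5 of the 8 kept a peak in all 24 h libraries and 1 in all 72 h libraries, against 8 in all untreated libraries, where 57.8%, 24.5% and 72.7% of all tested starts did. With at least 200 bases of overlap, 8 did at 24 h and 5 at 72 h, where 78.7% and 65.3% of all tested starts did. A gain was counted as a peak in all THC libraries that no untreated library had, and a loss as the reverse. With a peak listed in every library, the 8 host gene starts could show neither. Over all tested starts such gains made up 0.0%, 0.00992% and 0.0595% and such losses 0.149%, 0.278% and 0.00992% for ATAC at 24 h, ATAC at 72 h and H3K4me3. These counts leave the height of the peaks aside, since the authors' fold values come from lists made separately and cannot be compared between them. For SNHG6 and SNHG15, which have no start in the table, at least 1 peak of each assay lay over the gene in all libraries.

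The length of the H3K4me3 peaks differed more between genes than between groups. The H3K4me3 peak of SNHG1 was 8436, 8241 and 8828 bases long in THC libraries, against 8676, 9789 and 7395 bases in untreated libraries. At EPB41L4A-AS1 it was 2564, 2804 and 3420 bases long in THC libraries, against 2809, 3246 and 2844 bases in untreated libraries. At GAS5 it was 6578, 5443 and 5789 bases long in THC libraries, against 4528, 5538 and 5590 bases in untreated libraries. SNHG12 had 3572, 4869 and 5081 bases in THC libraries, against 3444, 2987 and 3716 bases in untreated libraries. The THC and untreated lengths overlapped at each of the 8 starts. The ATAC peak of GAS5 began 206 to 296 bases downstream of the annotated start in all 9 libraries, and that of SNHG1 had its far edge at positions -500 to -220 from the SNHG1 start, which in 8 of the 9 libraries lay beyond the start of SLC3A2. In THC 72 h replicate 2, the library with the fewest ATAC peaks (38495, against up to 150884 in the others), the SNHG1 peak was 138 bases long, against 314 to 608 bases in the other 8.

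**Figure D5:**
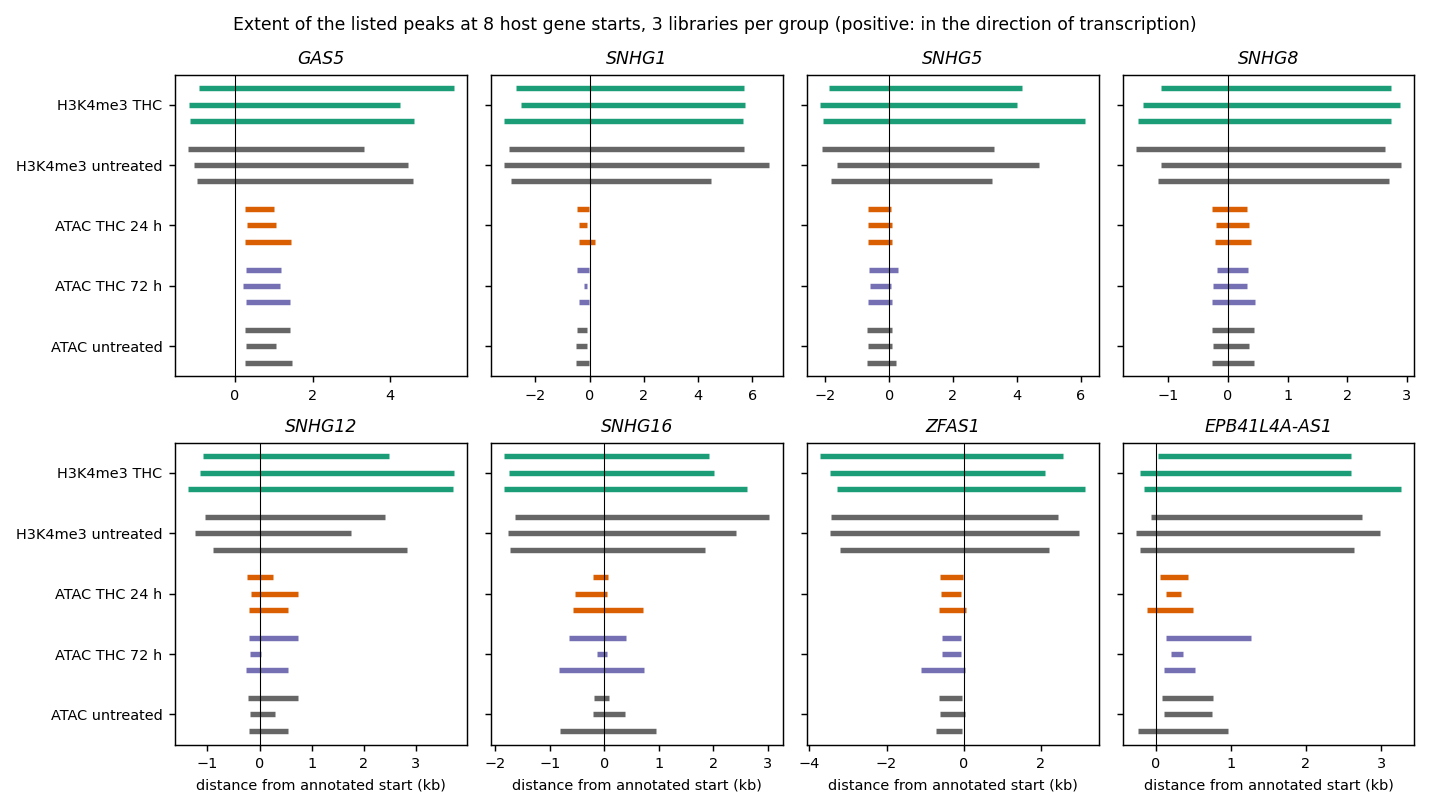
Extent of the listed peaks at the starts of 8 host genes, as distance in kb from the annotated start in the direction of transcription, 1 bar per library (where a library lists more than 1 peak, the bar runs from the first to the last). H3K4me3 bars of THC libraries (green) and untreated libraries (grey) cover similar stretches, and all ATAC bars of GAS5 begin downstream of 0.

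The label of the cell line was checked once. All 7 epithelial markers exceeded 1 TPM in all 9 libraries, all 5 immune and all 3 endothelial markers stayed under 1 TPM, and of 5 stromal markers only VIM (9.2 to 22.7 TPM) reached 1 TPM in all libraries. Depth per library is unknown, since TPM keeps none.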

How the data were processed

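RNA, ATAC and H3K4me3 files of 24 HEC-1A samples were used, grouped by their labels. The IgG control was not analysed here. Per the labels' protocols, RNA libraries came from a stranded total RNA kit. The submitters' processing notes name GRCh38 and, without roles, MACS2 2.2.7.1, MACS3, Salmon, Bowtie2, Picard, SAMtools, FastQC and Trim Galore. RNA values are TPM as deposited by the authors. TPM keeps no depth, so depth per library is unknown, no count test was run and no counting interval is given. Peaks were called per library, and their fold enrichment (a ratio) and -log10 q are the authors' deposited values. The deposited score column repeats the -log10 q and was not used. No source used here gives duplicate removal, read shifting or peak controls.

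Symbols came from a table of gene names (59918 of 60179 identifiers matched). The genes were tested with limma 3.58.1 in R 4.3.3 on log2(TPM + 1) in 13753 genes whose TPM averaged 1 or more over all 9 libraries, in 1 model of 3 groups, with eBayes and trend. Two-sided p-values were adjusted over all tested genes by the Benjamini-Hochberg method with a threshold of 0.05, and a fold on this scale understates the change of scarce genes. The test was checked on simulated data. Peaks were matched to RefSeq starts (GRCh38.p14) within 1 kb, in Python 3.11.15 with pandas 2.3.3, numpy 2.4.6 and matplotlib 3.10.9. The host genes and all gene lists were chosen with earlier results of these data known. Named genes were all 10 hosts, up to 4 genes per list with the largest called change in a comparison, snoRNAs with a mean of at least 1 TPM, genes that overlap a host or start within 2 kb of its start, and the 5 genes most alike. Where the strand of a neighbour is not in the table it was kept. 1 gene that this rule names is not reported here.

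Alternatives were other pseudocounts (0.1 and 5), other filters on low values, centring on the library median, rescaling without mitochondrial or short non-coding RNAs, 2-group fits, eBayes without trend, a replicate block and leaving out each library, and for peaks a window of 250 bases, a -log10 q of at least 5 and an overlap of at least 200 bases.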

Additional observations from a re-analysis of the deposited data

Results flagged for a closer look

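The level in cells given THC differed between the 2 times, by limma's test of 72 h against 24 h, for 9 of the 10 host genes. Untreated libraries carry no time, so length of exposure and time in culture cannot be told apart here. The log2 change was -0.27 for GAS5, -0.39 for SNHG1, 0.34 for SNHG5, 0.21 for SNHG6, -0.26 for SNHG8, -0.94 for SNHG12, -0.51 for SNHG15, -0.77 for SNHG16 and -0.83 for EPB41L4A-AS1. ZFAS1 did not pass. All 3 libraries of a group show the direction for each of the 9 genes. In TPM as deposited 54.9% of all tested genes were called higher and 17.8% lower in this comparison. After centring on the library median 30.4% were called higher and 37.9% lower, and SNHG5 (0.03) and SNHG6 (-0.095) were not called.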

How the results depend on the processing

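The 10 host genes were called higher at 24 h under all 19 alternatives run, and 9 of them at 72 h, SNHG16 being the exception in 10 alternatives. Among single-gene values under the alternatives, 557 kept direction and side of the threshold. Centring on the library median left 0 host genes higher at 72 h against 24 h, turned SNHG6 to -0.095 (adjusted p = 0.243, limma) and ZFAS1 to -0.25 (adjusted p = 0.00378), and ended the call of SNHG5 (0.03). The summed level was 3189 TPM at 24 h and 894.2 TPM in untreated cells without mitochondrial genes, and 3191 TPM at 24 h and 894.6 TPM in untreated cells without short or abundant non-coding RNAs. With a -log10 q of at least 5, 5 host gene starts kept an ATAC peak in all libraries at 24 h and 1 at 72 h (57.8% and 24.5% of all tested starts), and with an overlap of at least 200 bases 5 did at 72 h (65.3% of all tested starts). Peak lists had few libraries and unknown depth, so a peak not listed is not shown to be absent.

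Leaving out 1 library at a time left 10 host genes higher at 24 h, 9 to 10 higher at 72 h, and 2 higher and 7 lower at 72 h against 24 h. It moved the summed level between 3033 and 3107 TPM at 24 h, between 2719 and 2838 TPM at 72 h and between 815.3 and 837.2 TPM in untreated cells. Deviations of same-numbered libraries correlated between -0.20 and 0.25 across genes, and those of differently numbered libraries between -0.23 and 0.22. Replicate numbers thus showed no clear pairing, though with so few libraries per group this check cannot exclude it. With the replicate number as a block, 10 host genes were higher at 24 h and 10 at 72 h, and no call changed.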
